A study of Arabidopsis thaliana with 2 samples.

Results

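THI2.1 and THI2.2 are a pair of Arabidopsis thaliana thionin genes, compared here between seedlings of the sks (snakeskin) mutant and wild-type seedlings. The THI2.2 signal was lower in sks, and the THI2.1 signal was higher on 2 of its 3 probe sets and lower on the other. THI2.1 (AT1G72260, chromosome 1) was read by 3 probe sets and THI2.2 (AT5G36910, chromosome 5) by 1. These 4 probe sets were all those that the platform annotation assigned to either gene, out of 8297 on the array. The genes were picked because of these very signals, so their levels and differences are a description and carry no test. In the gene table used for names, 2 genes carry the word thionin in their symbol or synonyms, and both are described here. Other plant genes may encode thionin-like peptides under other names and were not analysed here.

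Thionins are small, basic, cysteine-rich plant peptides that are held together by disulphide bridges and are toxic to bacteria and fungi through damage to their membranes. They are made as longer precursors, with a signal peptide in front of the thionin and an acidic part behind it that is cut off. In Arabidopsis, THI2.1 is known as a gene that jasmonate and attack by fungi can switch on in seedlings, and its transcript has also been described in flowers and siliques.

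The mutant group was RNA from whole seedlings of the line sks, an insertion mutant in the ecotype Col-0, on 1 Affymetrix array. The control group, called Col here, was RNA from whole Col-0 seedlings with no genetic modification, also on 1 array. Seedlings of both groups were at growth stage 1.0, in normal atmosphere and humidity, on Murashige-Skoog medium with 1% agar and 1% sucrose, at 22 °C with 24 hours of light per day. The labels name neither the disrupted gene nor the number of plants or lines behind a sample, so the genotype could not be checked in these data. With 1 array per genotype there is no replicate error, and each difference below is one between 2 RNA samples.

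Signals are linear intensities in arbitrary units, with trimmed means of 100.2 on both arrays and non-control medians of 19.0 in sks and 20.3 in Col. The reading floor was gauged from 23 blank controls, which target mouse, yeast and Bacillus genes and whose highest signal was 16.8 in sks and 11.1 in Col. A signal at or below that limit on its array is said to lie in the blank range, and a fold against it is given as a lower bound. These bounds hold for the signals as deposited. Scaling to the hybridisation spike controls, which were brighter in sks, would lower the bounds towards sks. Of 9 leaf markers, 2 had a single-gene probe set, and both were bright on both arrays. The antenna protein gene LHCB4.1 read 4306.8 in sks and 5954.7 in Col, and RCA, the Rubisco activase gene, 4224.3 and 5970.1. Of 8 seed markers, only the glyoxylate cycle gene ICL had a single-gene probe set, and it read 308.7 in sks and 35.3 in Col. The other seed markers were not read, and ICL alone cannot show whether seed tissue was present. None of the 5 flower markers and none of the 4 root markers had a single-gene probe set, so flower or root tissue could not be checked from such probe sets. Probe sets assigned to several genes were not searched for markers. In RNA from whole seedlings, fewer cells of a type and less RNA per cell cannot be told apart.

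On 2 of its 3 probe sets, THI2.1 was bright in sks and at or near the reading floor in Col. Its _at probe set, which has no shared-probe suffix, had a signal of 487.9 in sks and 11.4 in Col. The Col signal lay just above the highest blank, whereas the sks signal was far above all 23 blanks. The fold difference was 42.8 and the log2 difference 5.42, in sks over Col. With the higher of the blank limits, 16.8, as the floor on both arrays, the difference was at least 29.0-fold. The same probe set was brighter than 92.9% of the 8247 non-control probe sets in sks and than 38.6% in Col.

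The second THI2.1 probe set, with the suffix _s_at, gave a signal of 156.4 in sks and 4.8 in Col. The Col value was in the blank range, with 14 of 23 blanks below it. The transcript signal was therefore at least 14.1-fold higher in sks on this probe set, or at least 9.31-fold with the floor of 16.8 on both arrays. Its log2 difference without a bound was 5.03, a value that rests on the Col signal in the blank range. That suffix marks a probe set whose probes can also match related transcripts.

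The third THI2.1 probe set, with the suffix _i_at, did not show this difference. It read 15.2 in sks and 30.4 in Col, a 2-fold lower signal in the mutant. The sks signal was in the blank range, with 22 of 23 blanks below it, so Col was at least 1.81-fold brighter. Both signals of this probe set were dim, at the 45.3rd percentile of the sks array and the 57.9th of the Col array. The suffix marks a set for which the design found fewer unique probes than required. According to the annotation, the _i_at and _s_at probe sets were designed from 1 sequence record and the _at probe set from another, so 2 probe sets of one record differed in direction.

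THI2.2 showed the reverse of the bright THI2.1 probe sets. Its only probe set, again a plain _at, had a signal of 79.0 in sks and 999.8 in Col. Both values were above all blanks, so the fold needs no bound, and the sks signal was still 4.70 times the highest blank of its array. The signal was 12.7-fold lower in sks, a log2 difference of -3.66. On the Col array 307 non-control probe sets were brighter than THI2.2, and on the sks array 1987, which places it at the 96.3rd and the 75.9th percentile.

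**Figure D1:**
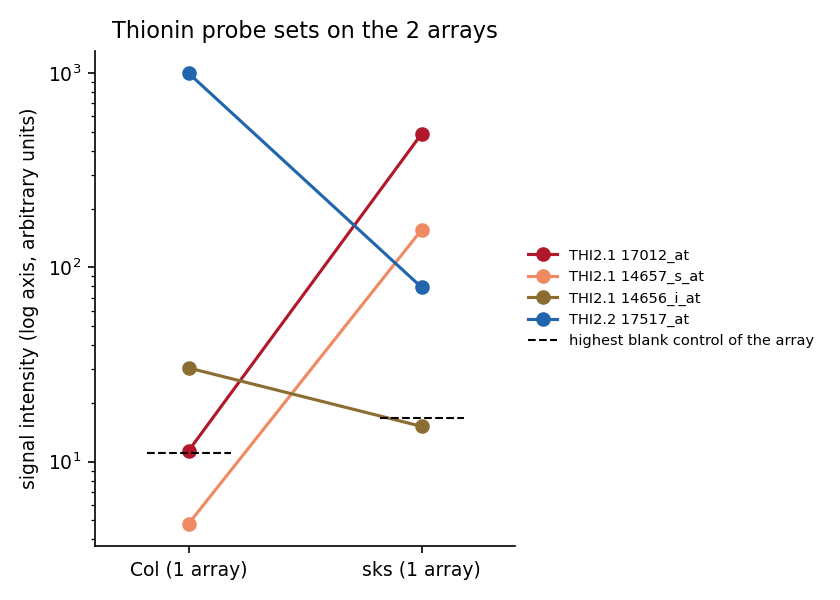
Signal intensity (log axis, arbitrary units) of the 4 thionin probe sets on the Col and the sks array, 1 array each, joined by lines, with a dashed line at the highest blank control of each array. THI2.2 falls from 999.8 in Col to 79.0 in sks, the _at and _s_at probe sets of THI2.1 stand at 487.9 and 156.4 in sks, and the _i_at probe set reads 30.4 in Col, above the blank limit, and 15.2 in sks, below it.

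To set the members in the whole table, probe sets were called measured when the mean of their log2 signals was at or above the non-control median, equal to a signal of 19.4. All 4 thionin probe sets passed, the _at and _s_at sets of THI2.1 with a Col signal below that level and the _i_at set with an sks signal below it. Among the 4124 measured probe sets, a difference of 2-fold or more was seen in 8.12% towards sks and in 12.4% towards Col, and at 8-fold the shares were 0.727% and 0.315%. The 2-fold counts were 335 and 510, but 135 and 1092 after scaling the arrays to the hybridisation spike controls. At 8-fold, the _at and _s_at sets of THI2.1 were among the 30 higher probe sets and THI2.2 among the 13 lower ones. Since the genes were chosen on this contrast, these shares are given only as its scale. Only 3 measured probe sets had a larger log2 difference than the THI2.1 _at set, none of them assigned to a single gene here, and 7, the _at set included, had a larger one than its _s_at set. At the other end, 3 measured probe sets had a lower value than THI2.2, of which 2 were assigned to a single gene. The _i_at probe set lay at the 2-fold limit itself, with 508 measured probe sets below it. The median log2 difference over all measured probe sets was -0.08, with an SD of 0.92.

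**Figure D2:**
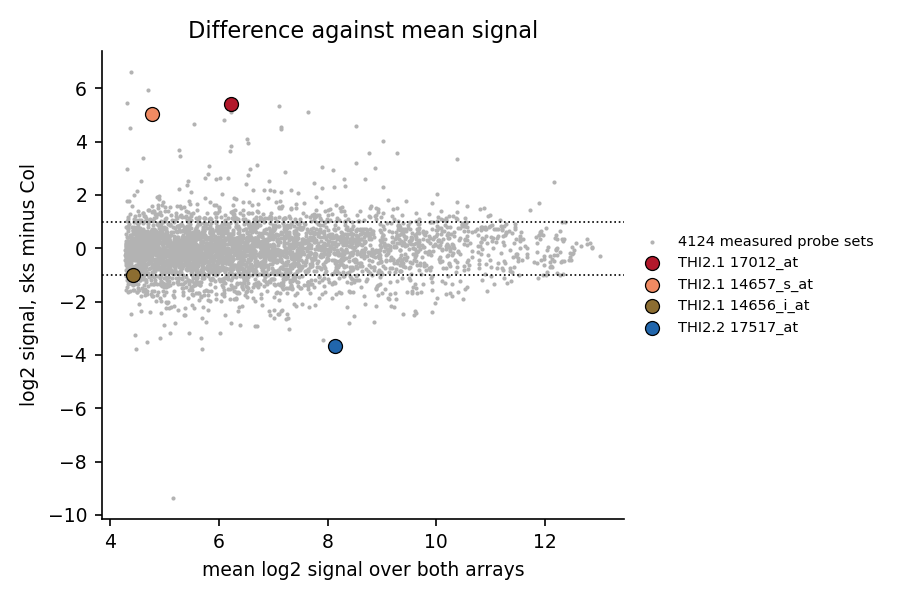
Log2 signal in sks minus Col against the mean log2 signal over both arrays, for 4124 measured probe sets (grey) and the 4 thionin probe sets (coloured), with dotted lines at a 2-fold difference. The THI2.1 points _at (5.42) and _s_at (5.03) lie near the top of the cloud, THI2.2 (-3.66) near its lower edge, and the THI2.1 point _i_at on the lower dotted line.

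The contrast between the genes does not depend on how the arrays are scaled to each other, because one factor per array cancels. The log2 difference of the THI2.1 _at set minus that of THI2.2 was 9.08, and with the _s_at set in its place it was 8.69. Quantile normalization gave 9.10 and 8.72. Flooring both arrays at the highest blank gave 8.52 and 6.88, and adding 16 to every signal gave 7.62 and 6.47. With the _i_at set the same quantity was 2.66, since both that probe set and THI2.2 were lower in sks. Such a quantity restates the signals for which the genes were picked, as a contrast between these RNA samples. It does not show how much either gene differed by itself.

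The summed thionin signal was lower in sks than in Col, although THI2.1 was higher on its _at and _s_at sets. Adding the brightest probe set of each gene gave 566.9 in sks and 1011.2 in Col, a ratio of 0.561. In this sum THI2.1 added 476.5 units in sks over Col, and THI2.2 fell by 920.8 units. The composition of the sum turned over: in Col nearly all of it came from the THI2.2 probe set, and in sks most of it from the THI2.1 probe set. The sum of all 4 probe sets was 738.5 in sks and 1046.4 in Col. With the _s_at set for THI2.1 the sums were 235.4 and 1004.6, and with the mean of the 3 THI2.1 probe sets they were 298.8 and 1015.3. The Col sum thus hardly depended on the probe set chosen for THI2.1, while the sks sum ranged from 235.4 to 738.5.

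A sum of signals is not a sum of transcripts, because probe sets differ in how brightly they read 1 transcript. The sums of the 2 arrays would be equal if the THI2.1 _at signal were weighted 1.93 times as strongly as that of THI2.2, or the _s_at signal 6.07 times. Beyond those weights the sks sum would be the higher one. The direction of the total amount of thionin transcript was therefore not settled by these arrays.

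**Figure D3:**
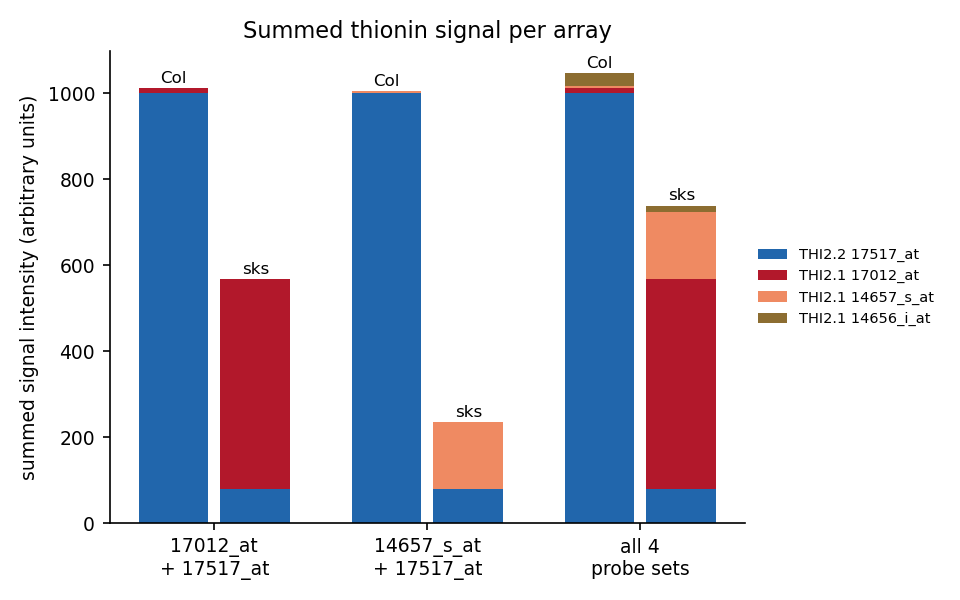
Summed signal intensity (arbitrary units) on the Col and the sks array for 3 choices of probe sets, with bars stacked by probe set. The Col bars reach 1011.2, 1004.6 and 1046.4 and consist almost wholly of THI2.2, and the sks bars reach 566.9, 235.4 and 738.5 and consist mostly of THI2.1.

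The disagreement among the THI2.1 probe sets was compared with that in other genes. There were 80 genes with at least 2 measured probe sets, and the range between the highest and the lowest log2 difference of one gene had a median of 0.33 over the 79 genes other than THI2.1. The range was 6.42 for THI2.1. The next widest was 1.57, in the clock gene GI. THI2.1 was picked for its large difference between the arrays, and most of the other genes differed far less. Genes that differ little cannot reach such a range, so the comparison is a description and no test of the disagreement. Probe sets of opposite sign occurred in 12 of the 79 genes, in none of them with 2-fold or more on both sides. In THI2.1 the _i_at set stood only at the 2-fold limit, with a bound of 1.81-fold, and fell inside it under 4 of 5 other settings. Between the _at and _s_at sets of THI2.1 the gap was 0.39 with the deposited signals and 1.64 with the floor of 16.8 on both arrays, so how closely these sets agree in size was not settled.

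Other probe sets with the suffix _i_at mostly had the direction of their partners. Among genes other than THI2.1, 31 pairs of an _i_at probe set and another probe set of the same gene were measured on both sides, from 24 genes. In 29 of these pairs both had the same direction, and the median gap was 0.33 log2 units. The widest gap among them was 1.46, in AT3G47380, an inhibitor family gene (of invertases and pectin methylesterases) whose 3 probe sets all were higher in sks. Without the filter on low values, 45 of 58 pairs had the same direction and the widest gap was 3.72, in the auxin repressor gene IAA20, with a partner signal in the blank range in Col. Within THI2.1 the gaps were 6.03 to the _s_at set and 6.42 to the _at set. Pairs of one gene share the RNA and can share probes, so they are not replicates.

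**Figure D4:**
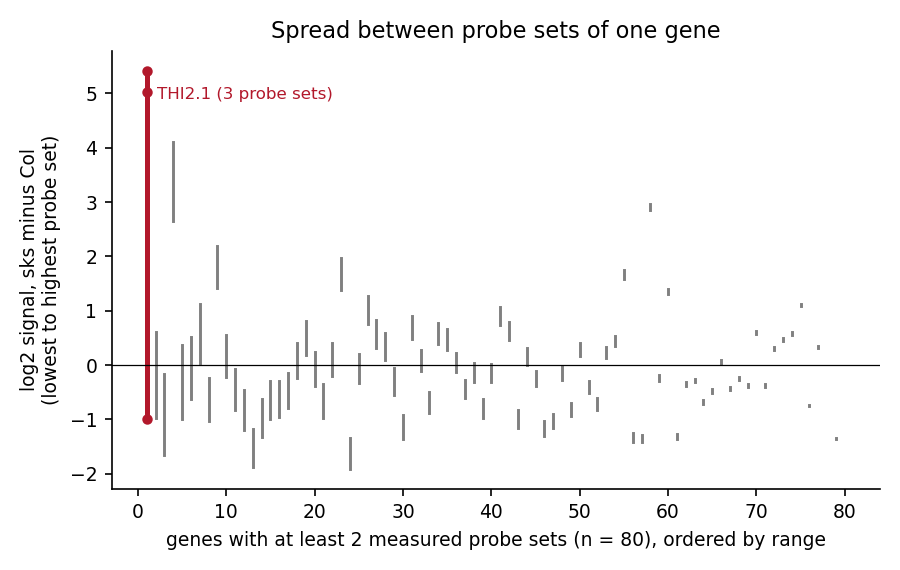
Lowest to highest log2 difference (sks minus Col) among the probe sets of one gene, for 80 genes with at least 2 measured probe sets, ordered by range. THI2.1 reaches from a 2-fold lower signal to a log2 difference of 5.42 with its 3 probe sets marked, and the next widest gene spans 1.57.

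Most other listed genes of jasmonate and defence signalling had no single-gene probe set on this array. Of 61 genes listed for jasmonate synthesis, jasmonate signalling, jasmonate response and salicylate response, apart from the thionins, 2 had a single-gene probe set and 0 were measured. PDF1.1, a plant defensin gene and so another small antimicrobial peptide, read 33.1 in sks and 9.3 in Col. The Col value lay in the blank range, so PDF1.1 was at least 2.98-fold higher in sks, or at least 1.97-fold with the floor of 16.8 on both arrays. MYC4, which encodes a transcription factor of the jasmonate response, read 3.6 in sks and 8.5 in Col, in the blank range on both arrays, and no fold is given. No single-gene probe set represented the 21 synthesis genes or the 8 salicylate genes, so their levels are unknown here. Probe sets assigned to several genes were not searched for list members.

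The genes with the most similar pattern were found by the gap in log2 difference, over 2 arrays, among measured probe sets of 1 gene. Nearest to the THI2.1 _at set was AT2G43620, a chitinase family gene, at 1167.6 in sks and 33.9 in Col, with a gap of 0.31. AT1G65500 followed with 684.5 and 29.5, a gap of 0.88, and then AT3G47380 on one of its _s_at probe sets with 378.7 and 22.0, a gap of 1.31. All 3 were bright in sks and dim, though above the blank range, in Col. No measured single-gene probe set had a larger difference than the _at set. Apart from the thionins, these 3 are thus simply the next highest differences.

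Nearest to THI2.2 was AT2G39040, a class III peroxidase gene, at 6.0 in sks and 81.8 in Col, with a gap of 0.11. AT4G36700, of the cupin family, read 13.8 and 191.0, a gap of 0.13, and AT1G22690, of the GASA family of small cysteine-rich peptides, 73.8 and 797.6, a gap of 0.23. AT1G22690 resembled THI2.2 also in its signals, bright in Col and above the blank range in sks. The sks signals of AT2G39040 and AT4G36700 were in the blank range, so their differences are bounds of at least 4.87-fold and 11.4-fold and their gaps to THI2.2 are uncertain. Likeness over 2 arrays is only a similar ratio.

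The genome around the pair gave no further reading. Within 5 places on either side of THI2.1 and THI2.2, the gene table lists 20 genes, and the annotation names no probe set for any of them alone. Whether neighbouring genes differed in the same direction is thus unknown.

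The arrays also differed in measures of RNA and hybridisation. All 9 hybridisation spike controls were brighter in sks, by a median of 1.36-fold, and dividing the sks signals by that factor gave log2 differences of 4.98, 4.58 and -1.44 for the _at, _s_at and _i_at sets of THI2.1 and -4.10 for THI2.2. For GAPDH, the 3′ control was 4.14 times as bright as the 5′ control in sks and 2.94 times in Col, and for ubiquitin 4.65 and 4.84 times. The 3′ GAPDH signal itself was 2730.2 in sks and 1117.2 in Col, while the large ribosomal RNA control read 117.2 and 296.8. The part of these differences in the thionin signals was not tested.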

How the data were processed

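The labels describe 2 samples of whole-seedling total RNA, labelled as biotin cRNA. The authors deposited 1 linear intensity for each probe set on each array; the summarising software is not given in the sources used here. Trimmed by 2% at each end, the array means differed by less than 1%, so the intensities were used as deposited. Signals below 1 were set to 1, and log2 of Col was subtracted from log2 of sks (Python 3.11.15, pandas 2.3.3, numpy 2.4.6). Counts exclude 50 control probe sets. No test was possible with 1 array per group; that number limits the precision, and no detection call was used.

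Gene names came from the platform annotation, which can be old, and were updated through the Entrez ID with RefSeq's TAIR10.1 table: 3794 probe sets had 1 gene, 70 several, 4383 were unnamed here, and 3784 matched the table. The files name no build, so no coordinates are given. Counting was checked on simulated data. Members and lists were chosen with earlier results of these data known. THI2.1 was read by 17012_at, 14657_s_at and 14656_i_at and THI2.2 by 17517_at; the text calls them by suffix. Named genes are these, list members, the 3 nearest patterns to the _at set of each thionin, and genes within 5 places; leaf, seed, flower and root markers served as tissue checks. Alternatives covered scaling, floor, filter and the make-up of the sum.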

Additional observations from a re-analysis of the deposited data

How the results depend on the processing

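The log2 differences of the 4 thionin probe sets were recomputed under 5 other settings. Most of these cannot turn a difference of such size, or any sign, by construction, so kept signs are not given as support. A shift is named where it passed 0.37, the pooled SD between probe sets of one gene without THI2.1, which is no replicate error. For THI2.1, spike scaling moved the _at set from 5.42 to 4.98, the _s_at set from 5.03 to 4.58 and the _i_at set from -1.0 to -1.44, and for THI2.2 it moved the value from -3.66 to -4.10. Adding 16 before log2 gave 4.20, 3.05 and -0.57 for the _at, _s_at and _i_at sets of THI2.1, and the blank floor 4.86 and 3.22 for the _at and _s_at sets; both settings compress dim signals by construction. The _i_at set lay at the 2-fold limit and fell inside it under median centring, quantile normalization, the offset and the floor. The log2 ratio of the summed signal was -0.83. It was -1.76 with the mean of the THI2.1 probe sets, -2.09 with the _s_at set and -1.28 with spike scaling. The sks sum was the lower one in all 9 sums computed, of which the sum of plain _at sets equals the first. These sums reuse the same probe sets and arrays with equal weights for both genes, so their shared direction is not given as support. A 2-fold difference was passed by 335 measured probe sets towards sks and 510 towards Col, against 1008 and 1258 with no filter, 194 and 259 with a filter set to the 75th percentile, where the number tested differs by construction, and 135 and 1092 with spike scaling. In the jasmonate and defence lists 0 members passed 2-fold in either direction, and without a filter 1 passed in each, with 1 or both signals in the blank range. Median centring, quantile normalization and the blank floor kept the counts over all probe sets within 1.5 times. Leaving out a replicate was not possible. No paired analysis was possible because the comparison held a single array on each side.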
